A study of Rattus norvegicus with 96 samples.

Results

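Klhdc8b (ENSRNOG00000047867), Fbxl17 (ENSRNOG00000013875) and Ctnna2 (ENSRNOG00000006003) are 3 of the 17637 genes in a count table from rat brain after repeated nicotine injections. The study took them for qPCR as genes that differed in male ventral tegmental area (VTA) and lie in human smoking GWAS loci, so they were selected on the counts of nicotine (NIC) and saline (SAL) rats in male VTA. Those male VTA values are given here as a description with no test, and tests are kept for samples that the choice did not use, or, for differences between regions and sexes and for correlations that include male VTA libraries, say so or stand beside the values of females alone. All 3 genes passed the filter on low counts, which kept 16879 genes.

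The study modelled nicotine sensitization (SST), the growing locomotor response to repeated NIC. The transcriptome was measured in 32 rats, 16 of each sex, in VTA and in the core and the shell of the nucleus accumbens (NAc). All rats were F1 hybrids of the inbred strains F344 and BN, bred in both directions of the cross, and the sample labels do not say which rat came from which direction. NIC rats received 0.4 mg/kg NIC (base) daily for 4 days, control rats received SAL on the same 4 days, and the labels give day 17 for tissue harvest. The labels speak of early adulthood and give no exact age. Each library is 1 region of 1 rat. The 12 groups of sex, region and treatment hold 8 libraries each, except for the SAL group of male VTA and the NIC group of female NAc core, with 7 each, which makes 94 libraries. Every male title carries the word box1 and every female title box3, and the labels do not say what a box is, so sex and box cannot be told apart. The labels also give a prep batch for each library, 10 in all, and few of these hold both treatments of 1 sex: batch C in males, and batches J and L in females.

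Klhdc8b is a protein built of kelch repeats that sits at the midbody, the bridge between daughter cells at the end of division, and has a role in cytokinesis. Fbxl17 is an F-box protein with leucine-rich repeats. It brings substrates to the SCF ubiquitin ligase (Skp1, Cul1, Rbx1 and an F-box protein) and is known for the quality control of BTB-domain dimers. Ctnna2, alpha-N-catenin, is the alpha-catenin of neurons: it links cadherins, through beta-catenin, to the actin cytoskeleton and is known for its part in neuronal migration and in the stability of synapses. The VTA is a midbrain nucleus rich in dopaminergic neurons, and the NAc core and shell are ventral striatal regions that receive their axons.

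The bases just upstream of the 3 genes are shown because the genes were compared for shared levels and shared variation. Each run is the 250 bases before the annotated start in RefSeq, build GRCr8, read 5′ to 3′ on the minus strand, at chr8:118025103-118025352 for Klhdc8b, chr9:110653981-110654230 for Fbxl17 and chr4:112001352-112001601 for Ctnna2. Capitals mark 2 motifs on either strand: the GC box GGGCGG and the letters TGACG from the cAMP response element, so that CCGCCC and CGTCA are the same motifs on the other strand.
Klhdc8b: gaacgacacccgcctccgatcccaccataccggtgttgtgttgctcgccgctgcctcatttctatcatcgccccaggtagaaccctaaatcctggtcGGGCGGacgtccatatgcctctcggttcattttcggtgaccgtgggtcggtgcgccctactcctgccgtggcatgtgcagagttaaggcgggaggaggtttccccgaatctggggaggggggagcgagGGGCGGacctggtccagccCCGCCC
Fbxl17: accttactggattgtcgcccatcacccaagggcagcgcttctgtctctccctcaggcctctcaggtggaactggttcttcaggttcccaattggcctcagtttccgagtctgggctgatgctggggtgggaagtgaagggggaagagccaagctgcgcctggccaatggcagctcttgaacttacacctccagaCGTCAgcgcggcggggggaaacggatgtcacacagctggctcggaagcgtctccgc
Ctnna2: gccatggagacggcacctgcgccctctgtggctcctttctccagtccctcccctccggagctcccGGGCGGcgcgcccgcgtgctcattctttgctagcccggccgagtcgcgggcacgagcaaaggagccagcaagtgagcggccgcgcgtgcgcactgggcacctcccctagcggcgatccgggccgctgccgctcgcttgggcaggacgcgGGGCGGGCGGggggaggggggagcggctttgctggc
The 3 stretches had a GC content of 63.6%, 60.4% and 74.4% in that order, which is above that of 82.06%, 75.56% and 96.12% of the 33469 promoters of the same length in the table, whose median was 51.2%. Klhdc8b had 3 GC boxes, the nearest 0 and the farthest 147 bases from the start. Ctnna2 also had 3 GC boxes, 26 to 179 bases from the start, of which 2 overlap. Fbxl17 had none, and was the only one of the 3 with a TGACG match, 51 bases from the start on the reverse strand. A GC box is held by 30.5% of all promoters and TGACG by 18.2%. E-boxes (CANNTG, on both strands) were found in all 3, with 2, 3 and 2 matches, and in 65.5% of all promoters. Neither the whole element TGACGTCA (1.59% of promoters) nor a TATA box (TATAAA, 12.9%) was in any of the 3 windows. A match is a description of letters, and these counts were not tied to any level below.

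The regions could be checked by their markers. Th and Slc6a3, which make and take up dopamine, had median levels of 712.9 and 860.5 CPM (counts divided by library size and put on one scale by TMM factors) in VTA, and 1.625 and 0.2863 CPM in NAc core. Drd1, a dopamine receptor of striatal projection neurons, had medians of 92.43 and 82.47 CPM in the core and the shell, and 1.263 CPM in VTA. Female VTA NIC rat 2 stood apart with 17.93 CPM of Th and a choroid plexus marker sum of 2744 CPM, and both NAc libraries of male SAL rat 1 were low in striatal markers, with sums over 8 genes of 369.3 CPM in core and 310.3 CPM in shell against regional medians of 3119 and 2487. These 3 libraries were picked after the marker levels were seen, and the differences between regions are given with and without them. Library totals were 15868529 to 27736905 counts, of which Klhdc8b took up to 1622, Fbxl17 166 to 941 and Ctnna2 362 to 978.

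Across regions the 3 genes had 3 different orders. Klhdc8b was highest in NAc shell and lowest in VTA. Fbxl17 was higher in VTA than in either part of the NAc, by 0.80 and 0.78 on the log2 scale. Ctnna2 differed little between regions. The values are in whole tissue, where fewer cells of a type and less RNA per cell cannot be told apart.

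Klhdc8b had a mean of 64.28 ± 4.436 CPM (SD, n = 32) in NAc shell, followed by 53.01 ± 5.614 CPM (n = 31) for NAc core, with VTA lowest at 46.18 ± 6.407 CPM (n = 31). The lowest, median and highest libraries were 55.71, 64.83 and 73.42 CPM in shell, 40.76, 52.77 and 65.5 CPM in core, and 33.6, 46.92 and 59.62 CPM in VTA. Neighbouring regions therefore overlapped over all libraries, but within a rat the order was more regular. Klhdc8b was lower in VTA than in shell in 31 of 31 rats, with a median log2 ratio of -0.48 and a range from -0.91 to -0.071. It was lower in VTA than in core in 25 of 30 rats and higher in shell than in core in 29 of 31 rats, with median log2 ratios of -0.19 and 0.31. In edgeR's quasi-likelihood test of the 12 group means, VTA minus shell was -0.49 ± 0.035 (log2 ± SE, adjusted p = 4.421e-23), VTA minus core was -0.21 ± 0.035 (adjusted p = 1.097e-07), and shell minus core was 0.28 ± 0.035 (adjusted p = 2.986e-10). In the female libraries, which the choice of genes did not use, the same differences were -0.48 ± 0.051 (adjusted p = 1.551e-11), -0.21 ± 0.052 (adjusted p = 0.0004461) and 0.28 ± 0.052 (adjusted p = 7.722e-05). Region calls are common in this table: an adjusted p under 0.05 was reached by 81.6% of genes between VTA and NAc core, 80.8% between VTA and NAc shell and 32.3% between shell and core, so it is the size and order of the differences that describe a gene here, not the call.

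Fbxl17 had a mean of 30.8 ± 4.57 CPM (SD, n = 31) in VTA, 17.71 ± 3.306 CPM (n = 31) in NAc core and 17.93 ± 4.995 CPM (n = 32) in NAc shell. Its libraries ran from 23.4 through a median of 32.17 to 39.45 CPM in VTA, from 12.55 through 17.64 to 27.56 CPM in core, and from 8.687 through 16.69 to 37.9 CPM in shell. A few NAc libraries reached into the range of VTA, yet in every rat with both libraries the VTA was the higher one. This held in 30 of 30 rats against core (median log2 ratio 0.84, lowest 0.14) and in 31 of 31 rats against shell (median 0.86, lowest 0.016). The group means gave 0.80 ± 0.071 for VTA minus core (adjusted p = 3.88e-18) and 0.78 ± 0.070 for VTA minus shell (adjusted p = 6.278e-18) by edgeR. In females alone they gave 0.83 ± 0.076 (adjusted p = 1.98e-13) and 0.79 ± 0.074 (adjusted p = 4.649e-13). NAc shell and core were neighbours that did not differ beyond their spread: shell minus core was 0.016 ± 0.070 (adjusted p = 0.8989), and 12 of 31 rats had the higher value in shell.

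Ctnna2 lay at 28.76 ± 3.881 CPM (SD, n = 31) in VTA, 32.09 ± 4.748 CPM (n = 31) in NAc core and 30.32 ± 5.653 CPM (n = 32) in NAc shell. Lowest, median and highest libraries were 20.76, 28.72 and 35.77 CPM in VTA, 23.25, 32.29 and 49.74 CPM in core, and 20.78, 30.31 and 47.77 CPM in shell, so the ranges overlapped. Over all libraries VTA minus core was -0.16 ± 0.050 (edgeR, adjusted p = 0.002221), with the lower value in VTA in 22 of 30 rats. The call was not made in females or in SAL libraries alone: in females VTA minus core was -0.013 ± 0.054 (adjusted p = 0.8351), in males it was -0.31 ± 0.084, and in SAL libraries of both sexes it was -0.13 ± 0.067 (adjusted p = 0.06802). The values over all libraries and in males include the male VTA NIC libraries, on which Ctnna2 was chosen as lower, so no support is drawn from them. VTA minus shell (-0.080 ± 0.050, adjusted p = 0.1325) and shell minus core (-0.084 ± 0.050, adjusted p = 0.1984) did not pass, with the higher value in VTA than in shell in 15 of 31 rats and in shell than in core in 10 of 31.

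**Figure D1:**
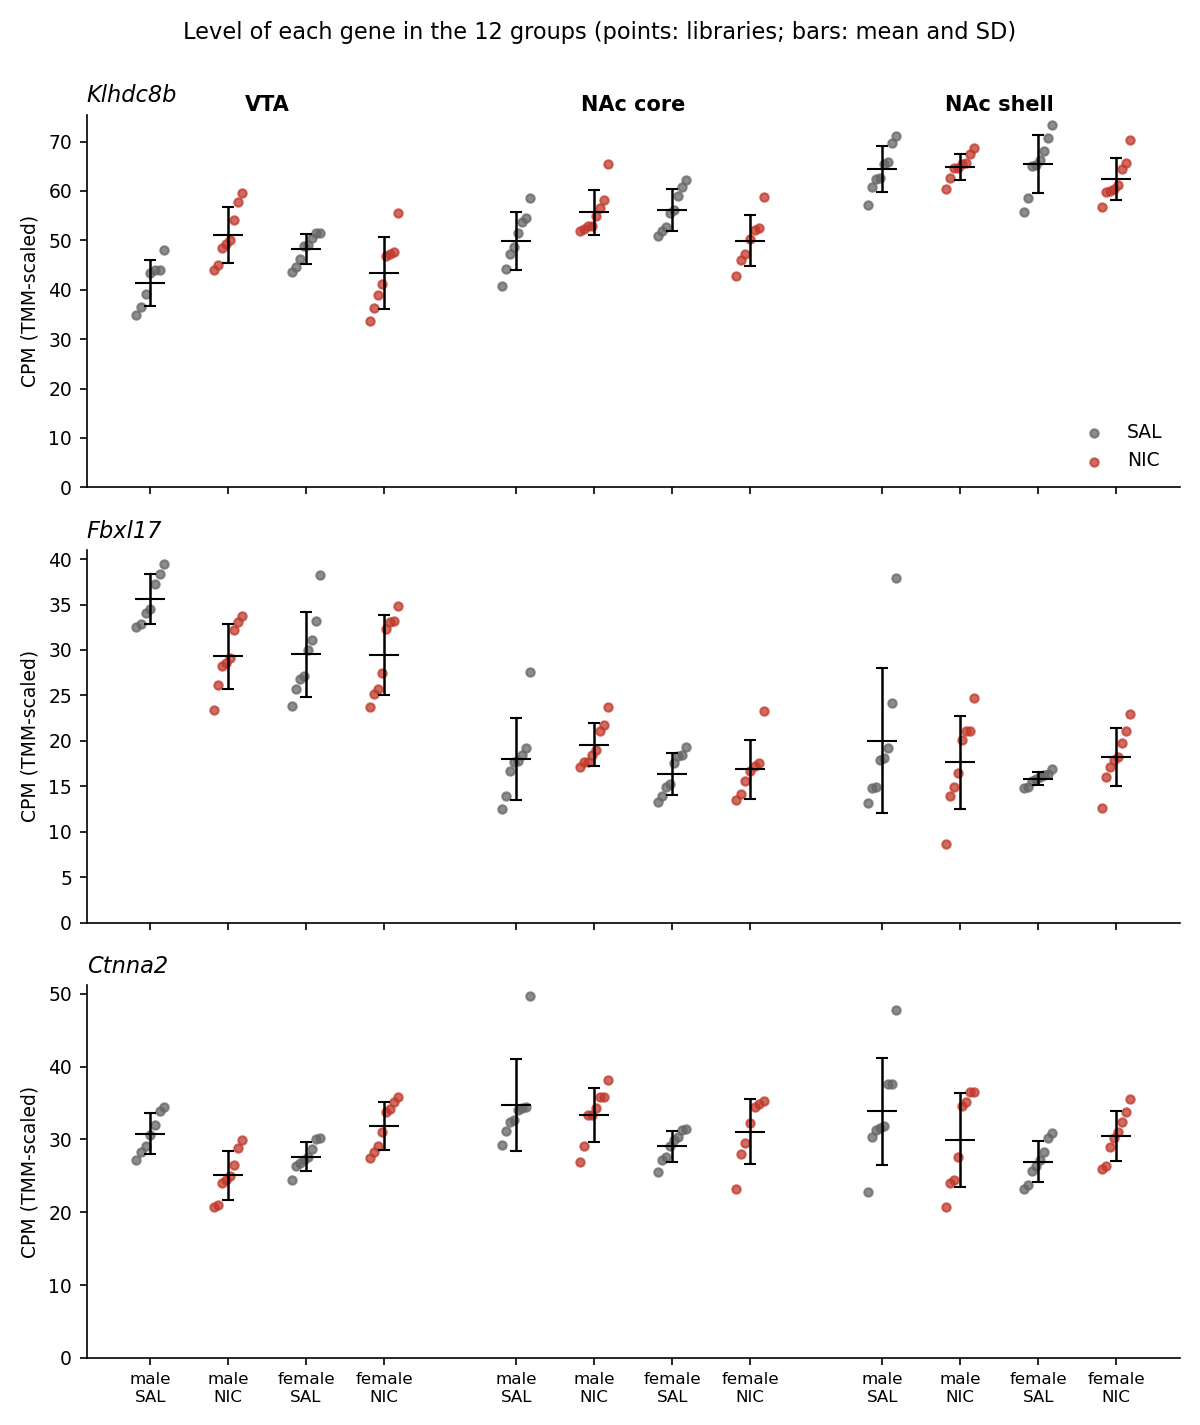
Level of Klhdc8b, Fbxl17 and Ctnna2 in CPM (TMM-scaled, axis from 0) in each library of the 12 groups, SAL in grey and NIC in red, with the mean and SD of each group as bars. Klhdc8b sits highest in NAc shell (mean 64.28 CPM), Fbxl17 in VTA (30.8 CPM), and the Ctnna2 groups overlap across the regions.

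**Figure D2:**
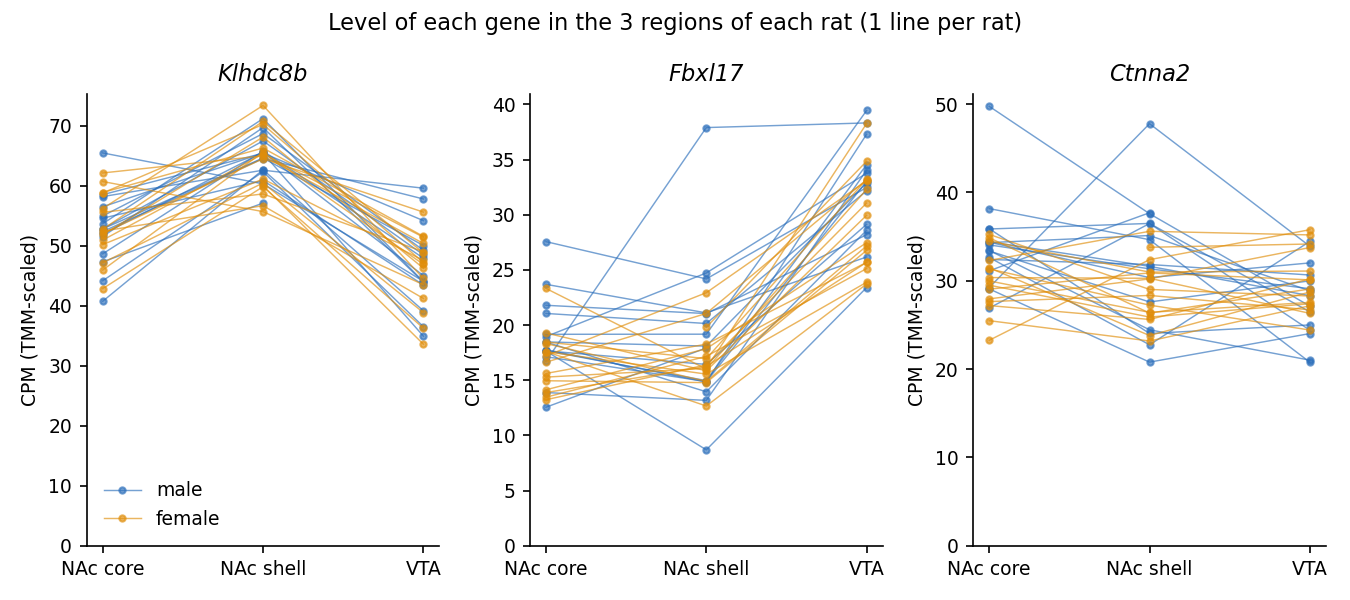
Level in CPM of each gene (axis from 0) across the regions of a rat, ordered as NAc core, NAc shell and VTA, with 1 line per rat, males in blue and females in orange. Every line of Fbxl17 rises from NAc shell to VTA (31 of 31 rats) and every line of Klhdc8b falls (31 of 31 rats), while the lines of Ctnna2 cross.

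Other measures moved with region as well. The summed level of 7 oligodendrocyte markers had a median of 38640 CPM in VTA (23380 to 48070), 12930 in NAc core (10110 to 15860) and 10770 in NAc shell (4571 to 19980), and all 7 of 7 passed as higher in VTA against either part of the NAc. The sum of 34 ribosomal protein genes, a list made after the most and least similar genes had been seen, had medians of 8830 CPM in VTA (7964 to 10160), 11280 in core (8837 to 13070) and 11160 in shell (7945 to 13420). With that sum as a covariate VTA minus core became -0.12 for Klhdc8b (adjusted p = 0.06866) and 0.14 for Fbxl17 (adjusted p = 0.09231), VTA minus shell was -0.40 for Klhdc8b (adjusted p = 2.979e-10) and 0.20 for Fbxl17 (adjusted p = 0.0107), and Ctnna2 went to -0.57 and -0.45 (adjusted p = 2.702e-13 and 2.082e-10). The sum itself differs between the regions, so region and ribosomal sum cannot be told apart in that fit, and the part of oligodendrocyte content in the region differences was not tested. Without the 3 libraries that stood apart, VTA minus core and VTA minus shell were -0.19 and -0.47 for Klhdc8b, 0.83 and 0.80 for Fbxl17, and -0.14 and -0.071 for Ctnna2. Shell minus core was then 0.28 for Klhdc8b, 0.033 for Fbxl17 and -0.074 for Ctnna2.

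Paralogs and partners did not share one regional order. Klhdc8a, the nearest relative of Klhdc8b, had the opposite signs throughout: 0.15 ± 0.047 for VTA minus core (adjusted p = 0.002186), 0.30 ± 0.046 for VTA minus shell (adjusted p = 1.303e-08) and -0.15 ± 0.047 for shell minus core (adjusted p = 0.01002). Among the other 5 Klhdc genes that could be named in the table, 4 were higher and 1 lower in VTA than in core, and likewise against shell, with median log2 differences of 0.40 and 0.39 where all genes had 0.012 and 0.0040. Klhdc7a (1.95 and 1.35) and Klhdc10 (0.73 and 0.53) were the highest of them in VTA, and Klhdc9 (-0.21 and -0.33) was the lower one. Shell minus core passed upward in 2 of these 5 (Klhdc7a 0.60, Klhdc10 0.20) and downward in Klhdc8a.

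Of 18 other genes of SCF and the Fbxl family, including BTB proteins tied to Fbxl17 such as Bach1, 9 were higher and 7 lower in VTA than in core (median 0.030), and 8 were higher and 8 lower against shell (median -0.0011). Fbxl16 was lowest in VTA, with -2.05 and -1.61, followed by Fbxl21 with -0.74 and -0.63. The largest positive values were those of Bach1, a haem-regulated repressor (1.32 and 1.18), and Fbxl7 (0.94 and 0.76). Between shell and core 2 passed in each direction, with Kdm2a, a histone demethylase with an F-box, at 0.23 and Fbxl16 at -0.44. Fbxl7 at 0.18 had an adjusted p of 0.05639.

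Ctnna1, the alpha-catenin of most other tissues, was higher in VTA, by 0.53 ± 0.021 against core (adjusted p = 1.567e-40) and 0.61 ± 0.021 against shell (adjusted p = 1.107e-44), where Ctnna2 was not. Of 12 other cadherin and catenin genes, Ctnna1 included, 3 were higher and 5 lower in VTA than in core (median 0.017), and 5 were higher and 6 lower against shell (median -0.082). Pkp4, a p120-catenin relative at junctions, stood at 1.01 and 1.23, Ctnnal1, an alpha-catenin-like protein, at -0.55 and -0.85, and the cadherin Cdh4 at -0.39 and -0.79. Shell minus core passed upward in 4 and downward in 4 of the 12, with Cdh4 at 0.40, Ctnnal1 at 0.30, Pkp4 at -0.22 and Ctnna1 at -0.073. Cdh8 was at -0.20 with an adjusted p of 0.05108. Symbols for these lists come from the study's tables of changed genes, so an unchanged member had less chance to be named.

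The NIC change of the genes was compared within each sex and region. In male VTA, where they were chosen, Klhdc8b was higher in NIC rats and Fbxl17 and Ctnna2 were lower. Klhdc8b lay at 44.09, 49.67 and 59.62 CPM (lowest, median and highest of the NIC group) against 34.94, 43.47 and 47.96 CPM in SAL, a log2 difference of 0.31 ± 0.084. Fbxl17 lay at 23.4, 28.86 and 33.76 CPM against 32.47, 34.54 and 39.45 CPM (-0.27 ± 0.079). Ctnna2 lay at 20.76, 24.69 and 29.98 CPM against 27.12, 30.64 and 34.45 CPM (-0.29 ± 0.082). All 8 NIC rats were above the SAL median for Klhdc8b and all 8 below it for both other genes, yet the ranges overlapped in each case. This is what the choice selected for: 5.62% of all tested genes had an unadjusted p under 0.05 in that contrast, 0 had an adjusted one by edgeR or by DESeq2, and nothing is read from the 3 genes being among them. In the same libraries 3 of 7 oligodendrocyte markers were lower in NIC at that threshold. The sums over all 7 were 29830 to 42870 CPM against 33900 to 47330 CPM in SAL. So were 2 of 5 cholinergic neuron markers, but the sum over the 5 was not lower. It had a median of 61.64 CPM (41.57 to 81.52) in NIC and 60.9 CPM (35.92 to 80.19) in SAL. The ribosomal sum had medians of 9067 CPM in NIC and 8597 CPM in SAL. With that sum as a covariate the differences were 0.29 for Klhdc8b, -0.18 for Fbxl17 and -0.30 for Ctnna2. The part of the oligodendrocyte and cholinergic neuron markers in them was not tested.

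Over the other 5 groups of sex and region, which give 15 tests, no change of the 3 genes passed an adjusted p of 0.05 by edgeR or by DESeq2, and 5 of 15 had an unadjusted p under 0.05. Across all genes no adjusted call was made by edgeR in any of the 5, with DESeq2 making 2 to 9. The unadjusted share in the background was 9.83% of genes in male NAc core, 2.46% in male NAc shell, 9.24% in female VTA, 6.45% in female NAc core and 10.1% in female NAc shell. The members reached it once of 3 in male core, 0 of 3 in male shell, once of 3 in female VTA, once of 3 in female core and 2 of 3 in female shell.

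Klhdc8b had an unadjusted p under 0.05 in NAc core of both sexes, with opposite signs. In male core the NIC rats lay at 51.97, 53.92 and 65.5 CPM and the SAL rats at 40.76, 50.11 and 58.54 CPM. All 8 NIC rats were above the SAL median, the 2 groups overlapped, and the difference was 0.15 ± 0.070 (edgeR, unadjusted p = 0.03842, adjusted p = 0.495). A two-sided exact permutation test of log2 CPM gave p = 0.04165. In female core the NIC rats lay at 42.87, 50.21 and 58.82 CPM and the SAL rats at 50.96, 55.91 and 62.16 CPM. Of 7 NIC rats 6 were below the SAL median, and the difference was -0.17 ± 0.066 (unadjusted p = 0.01806, adjusted p = 0.7448, exact permutation p = 0.02393). Within the prep batches that hold both treatments the differences were 0.21 in male batch C, over 4 NIC and 2 SAL rats, and -0.18 in female batch J, over 2 and 2. Meningeal fibroblast markers moved with the treatment in male core: 7 of 8 were higher in NIC at an unadjusted p under 0.05, with sums of 427.8, 717.1 and 1238 CPM against 292.6, 540.7 and 669.9 CPM. In the same rats 3 of 5 endothelial markers were higher at that threshold, with sums of 290.5, 329.4 and 394.1 CPM against 233.5, 308.2 and 367.2 CPM, as were 2 of 7 oligodendrocyte markers. The part of these markers in the Klhdc8b difference was not tested.

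In female VTA Klhdc8b lay at 33.6, 44.08 and 55.63 CPM in NIC and 43.53, 48.92 and 51.58 CPM in SAL. The NIC range enclosed the SAL range, and the difference was -0.16 ± 0.087 (adjusted p = 0.5911, exact permutation p = 0.092). It was -0.049 with the ribosomal sum as a covariate and -0.072 with prep batch as one. In NAc shell the NIC and SAL medians were 65.06 and 64.07 CPM in males, and 60.83 and 65.83 CPM in females, with differences of 0.0067 ± 0.050 (adjusted p = 1) and -0.062 ± 0.058 (unadjusted p = 0.2965). The latter was -0.15 with prep batch as a covariate and -0.038 without SAL rat 10.

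Ctnna2 had the smallest p of the 15 tests in female VTA, with a sign opposite to that in male VTA. The NIC rats lay at 27.39, 32.42 and 35.77 CPM and the SAL rats at 24.41, 27.35 and 30.2 CPM. All 8 NIC rats were above the SAL median, the ranges overlapped, and the difference was 0.20 ± 0.066 (unadjusted p = 0.007603, adjusted p = 0.5088, exact permutation p = 0.01026). Batches J and L, which hold both treatments, gave 0.20 and 0.17, the latter with 1 NIC rat. Endothelial markers were lower in these NIC rats in 4 of 5 genes at an unadjusted p under 0.05. Their sums were 239 to 397.9 CPM against 330 to 627.4 CPM. The meningeal fibroblast sum had a lower median in NIC too, 1064 against 1499 CPM. The part of these markers was not tested. The ribosomal sum was lower in NIC as well, with medians of 8532 against 9012 CPM, and with it as a covariate the Ctnna2 difference was 0.11 (edgeR, unadjusted p = 0.1674). Without female VTA NIC rat 2 and without each other library in turn, with no covariate, the difference was 0.17 to 0.23.

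In female NAc shell both Ctnna2 and Fbxl17 had higher medians in NIC. Ctnna2 lay at 25.88, 30.59 and 35.59 CPM against 23.17, 26.82 and 30.88 CPM in SAL, a difference of 0.19 ± 0.079 (unadjusted p = 0.02752, adjusted p = 0.4732, exact permutation p = 0.04134). Fbxl17 lay at 12.66, 18.06 and 22.93 CPM against 14.78, 15.96 and 16.95 CPM, a difference of 0.21 ± 0.095 (unadjusted p = 0.03867, adjusted p = 0.482, exact permutation p = 0.0791). The Fbxl17 libraries of NIC rats spread over a wider range that took in all SAL values, and 7 of 8 were above the SAL median. For Ctnna2 the direction did not hold within batch J, at -0.067 over 2 NIC and 2 SAL rats, nor with prep batch as a covariate (-0.050), while for Fbxl17 batch J gave 0.27. With the ribosomal sum as a covariate (medians of 10580 CPM in NIC and 11000 CPM in SAL) the Fbxl17 difference was 0.12 (edgeR, unadjusted p = 0.1354). All 8 of 8 striatal projection neuron markers were lower in these NIC rats at an unadjusted p under 0.05. Their sums were 1371, 2116 and 2949 CPM against 2235, 2694 and 3069 CPM. Slc17a6, a marker of glutamatergic midbrain neurons, had a higher median in NIC, 18.08 against 9.118 CPM. So had the oligodendrocyte sum, with 12440 against 10980 CPM. The part of these markers in the 2 differences was not tested.

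The remaining comparisons of Fbxl17 and Ctnna2 had unadjusted p-values of 0.2188 or more without a covariate. Fbxl17 stood at 0.12 ± 0.12 in male core, -0.19 ± 0.22 in male shell, -0.010 ± 0.10 in female VTA and 0.041 ± 0.11 in female core, where it was 0.18 ± 0.15 with the NIC rat 1 library that was otherwise left out. In female VTA the Fbxl17 value was -0.26 ± 0.16 with prep batch as a covariate and -0.21 ± 0.11 with the ribosomal sum as one (edgeR, unadjusted p = 0.1262 and 0.06615). Ctnna2 stood at -0.059 ± 0.096 in male core, -0.18 ± 0.14 in male shell and 0.094 ± 0.083 in female core. With single libraries left out Fbxl17 in male core ran from 0.058 (without SAL rat 3) to 0.23 (without SAL rat 4), and it was 0.36 with prep batch as a covariate. For Ctnna2 the highest value was -0.095 in male shell, without SAL rat 6, and 0.15 in female core, without NIC rat 2. The ribosomal sum as a covariate gave -0.10 for Fbxl17 in male shell and 0.055 for Ctnna2 in female core. In male shell 1 SAL rat decided the value of Fbxl17: rat 6, at 37.9 CPM, and without it the difference was 0.0059. Within batch C, over 3 NIC and 2 SAL rats, male shell gave 0.46 for Fbxl17 and 0.39 for Ctnna2. Both are opposite in sign to the values over all rats. In male core SAL rat 4, at 49.74 CPM, decided the sign of Ctnna2, which was 0.032 without it.

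**Figure D3:**
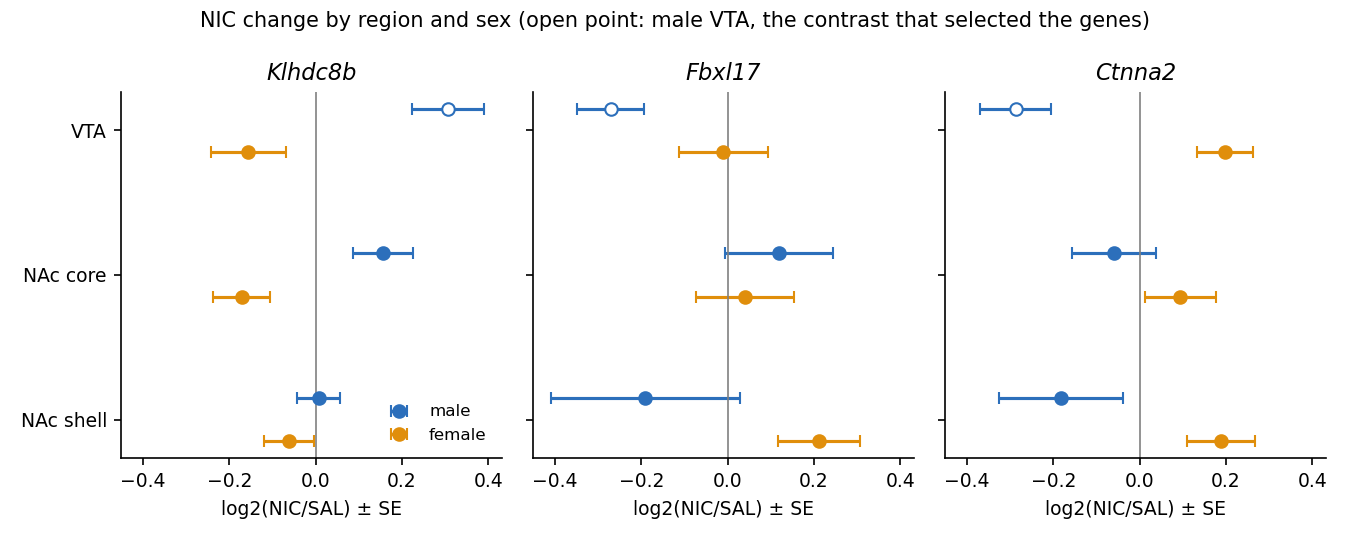
Difference of NIC from SAL on the log2 scale (edgeR, ± SE) for the 3 genes by region, males in blue and females in orange, with an open point for male VTA, the contrast that selected the genes. Klhdc8b is at 0.15 in male and -0.17 in female NAc core, and Ctnna2 at 0.20 in female VTA.

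The difference in the NIC change between males and females was tested in the NAc, where neither sex took part in the choice. Of 6 such tests 2 had an unadjusted p under 0.05 and none an adjusted one, against a background of 8.89% of genes in core and 8.07% in shell. Klhdc8b in core differed by 0.33 ± 0.097 (edgeR, unadjusted p = 0.001873, adjusted p = 0.5162), and by 0.38 with prep batch as a covariate. Ctnna2 in shell differed by -0.37 ± 0.17 (unadjusted p = 0.03795, adjusted p = 0.5972), a sign that turned to 0.42 with prep batch as a covariate. Both values with prep batch rest on batch C in males and batch J in females. In core these held 4 NIC and 2 SAL males, and 2 females of each treatment. Fbxl17 differed by 0.081 in core and -0.40 ± 0.25 in shell. The same difference in VTA contains the contrast that chose the genes, so only the values of each sex are given above. Differences of the NIC change between regions, 12 tests that leave out male VTA, had adjusted p-values of 0.7365 to 0.9972, and the smallest unadjusted p was that of Klhdc8b in males, with -0.15 ± 0.085 for shell minus core (edgeR, unadjusted p = 0.08805).

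Levels of males and females, with treatment as a term, differed at an adjusted p under 0.05 for 1 gene in 1 region. Ctnna2 in NAc core was higher in males by 0.18 ± 0.066 (edgeR, adjusted p = 0.03687), in a region where 32.9% of genes passed, and it stood at 0.15 ± 0.090 in shell (adjusted p = 0.2382). In VTA the Ctnna2 value had the other sign, at -0.10 ± 0.068 (adjusted p = 0.4176), and was 0.14 ± 0.059 in SAL libraries only (adjusted p = 0.3421). Male minus female values of Fbxl17 were 0.13, 0.17 and 0.15 in VTA, core and shell, and Klhdc8b stood at 0.016, -0.017 and 0.018, with no call. With prep batch as a covariate Klhdc8b in VTA and Fbxl17 in shell turned sign. Klhdc8b in VTA and shell also turned in SAL libraries only. The share of genes called was 2.33% in VTA and 21% in shell. The VTA values include the male libraries on which the genes were selected. Markers moved with sex in NAc core at an adjusted p under 0.05 as well: 8 of 8 striatal projection neuron and 4 of 5 cholinergic neuron markers were lower in males (1 of the 5 was higher), and 2 of 2 cortical projection neuron and 4 of 8 meningeal fibroblast markers were higher. The striatal sum had medians of 2374 (NIC) and 2396 CPM (SAL) in males against 3362 and 3756 CPM in females, and the part of these markers in the Ctnna2 difference was not tested. Sex and box coincide, as do sex and every prep batch but L, so these cannot be told apart.

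The lists were also counted in the NIC comparisons. No gene of the 3 lists had an adjusted p under 0.05 in any of the 6 by edgeR. An unadjusted p under 0.05 was reached by 5.62%, 9.83% and 2.46% of all genes in male VTA, core and shell, and by 9.24%, 6.45% and 10.1% in the same regions of females. At that threshold the 5 other Klhdc genes gave 1 call in male shell (downward), 1 in female core and 1 in female shell (both upward). The 18 other SCF and Fbxl genes gave 1 to 5 calls per comparison, with 3 up and 2 down in male core as the most, and the 12 cadherin and catenin genes gave 1 to 4, with 3 up and 1 down in female shell. The smallest p-values belonged to Fbxl19 in female shell (-0.18, unadjusted p = 0.001096) and Prmt1, an arginine methyltransferase, in female VTA (0.25, unadjusted p = 0.002512) among the SCF and Fbxl genes. In the cadherin and catenin list they belonged to Pkp4 in male VTA (-0.28, unadjusted p = 0.003766) and Ctnnal1 in female core (-0.27, unadjusted p = 0.007874), and in the Klhdc list to Klhdc2 in female shell (0.19, unadjusted p = 0.02191) and Klhdc9 in female core (0.36, unadjusted p = 0.02338). Klhdc8a lay between -0.15 and 0.13 over the 6 comparisons and Ctnna1 between -0.11 and 0.10, the latter value in female shell with an unadjusted p of 0.02516.

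Whether a rat with a high level in 1 region also had one in another was asked with log2 CPM after the treatment mean of each sex and region was subtracted, over 15 or 16 rats per relation. Relations with VTA in males include the libraries on which the genes were selected. None of 18 relations (3 genes, 3 pairs of regions, both sexes) passed after Benjamini-Hochberg adjustment over the 18. The highest was Fbxl17 between VTA and NAc shell in females, with r = 0.565 (permutation p = 0.0148, adjusted p = 0.266) and rho = 0.609 (permutation p = 0.0212). Without the 2 rats farthest from the median of the VTA level r was 0.613. In males the same relation had r = 0.467 (permutation p = 0.0857) and fell to 0.0696 without the 2 rats farthest from the median, so it rests on those rats. Ctnna2 between VTA and shell in females had r = 0.502 (permutation p = 0.0626), which was 0.873 within NIC rats and -0.0739 within SAL rats, and between VTA and core in females it had r = -0.492 (permutation p = 0.111). Without female VTA NIC rat 2 the latter was -0.285. Klhdc8b ran from -0.0295 to 0.361. The highest was female VTA with core, which was 0.585 with all mapped libraries and 0.0772 without the 2 rats farthest from the median. This relation rose to 0.519 with the ribosomal sum regressed out. With the ribosomal sum regressed out r was 0.288 for Fbxl17 between VTA and shell in females and 0.161 in males, and in females it was 0.0691 for Ctnna2 between VTA and shell, -0.176 for Ctnna2 between VTA and core, and 0.0697 for Klhdc8b between VTA and shell. The same r over all tested genes had medians of -0.011 to 0.18 in the 6 pairs, and 96.58% of genes had a lower r than Fbxl17 in female VTA and shell.

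**Figure D4:**
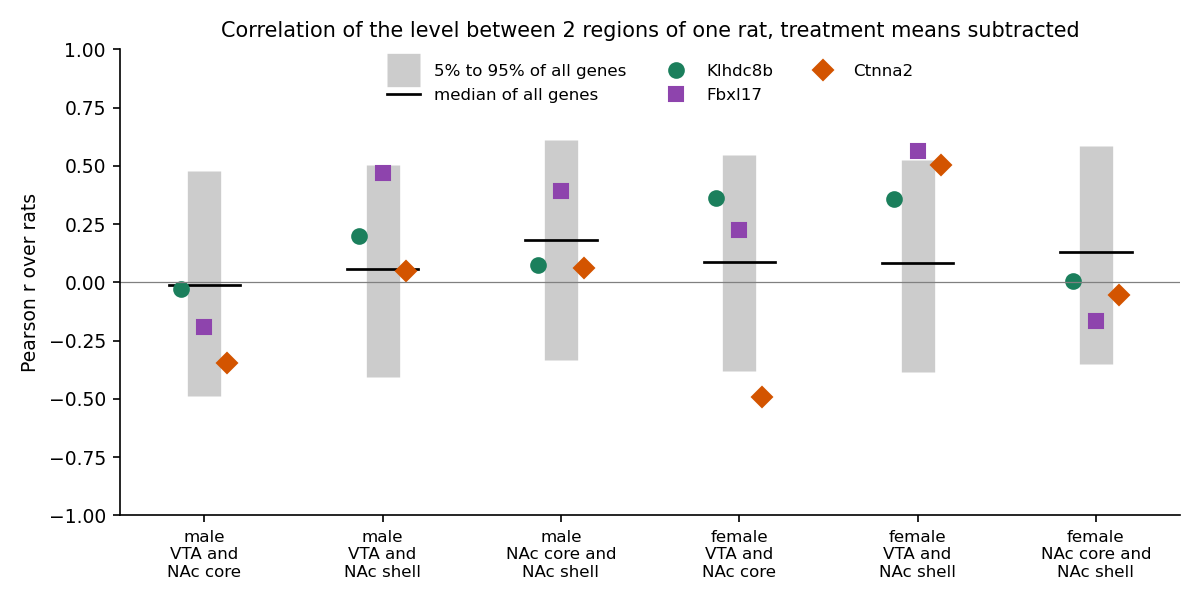
Pearson r over 15 or 16 rats between the levels of a gene in 2 regions, treatment means subtracted, for each sex and pair of regions (Klhdc8b circles, Fbxl17 squares, Ctnna2 diamonds), with the middle 90% of all 16879 genes as grey bars and their median as a line. Most points lie within the grey bars, and Fbxl17 in female VTA with NAc shell is at 0.565, just above its bar (0.288 with the ribosomal sum regressed out), and Ctnna2 in female VTA with NAc core at -0.492, below its bar (-0.285 without female VTA NIC rat 2).

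Within a region, Fbxl17 and Ctnna2 varied together in NAc shell. After the mean of each sex and treatment group was subtracted, r was 0.767 over 32 rats (permutation p = 5e-05, adjusted p = 0.00045 over 9 relations) and rho was 0.785 (permutation p = 6e-05). It was 0.727 without the 2 rats farthest from the median of Fbxl17, 0.817 in males and 0.528 in females, 0.676 with prep batch means subtracted (adjusted p = 0.0331) and 0.765 without the libraries that stood apart. A lower r with Fbxl17 was seen for 97.99% of genes. The relation was not of this size in the other regions, with r = 0.464 in core (adjusted p = 0.0848), which went to 0.147 without 2 rats, and r = 0.0863 in VTA, and the difference between regions was not tested. Klhdc8b and Ctnna2 had r = -0.473 in VTA, the selecting male libraries included (permutation p = 0.0154, adjusted p = 0.0692), -0.269 in core and -0.216 in shell. With prep batch means subtracted their shell value was -0.4325 (permutation p = 0.0408, adjusted p = 0.0919). With the ribosomal sum regressed out it was -0.105 in core and -0.11 in shell. Klhdc8b and Fbxl17 had r between -0.134 and 0.138.

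The summed ribosomal protein genes moved with both Fbxl17 and Ctnna2 in the same libraries. In NAc shell r with that sum was -0.888 for Fbxl17 and -0.797 for Ctnna2 (rho -0.9 and -0.793), in core -0.568 and -0.701, and in VTA -0.598 and -0.129. Klhdc8b had r of 0.19 to 0.28 with it. With the sum regressed out of both genes, their relation in shell was r = 0.214 (adjusted p = 0.837). The ribosomal list was made after the similar genes below had been seen, so these values are a description, and the source of the variation was not tested. Male shell SAL rat 6, the highest library for Fbxl17, had the lowest ribosomal sum of the region, 7945 CPM, and male core SAL rat 4, highest for Fbxl17 and Ctnna2 in core, had the lowest of that region, 8837 CPM.

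**Figure D5:**
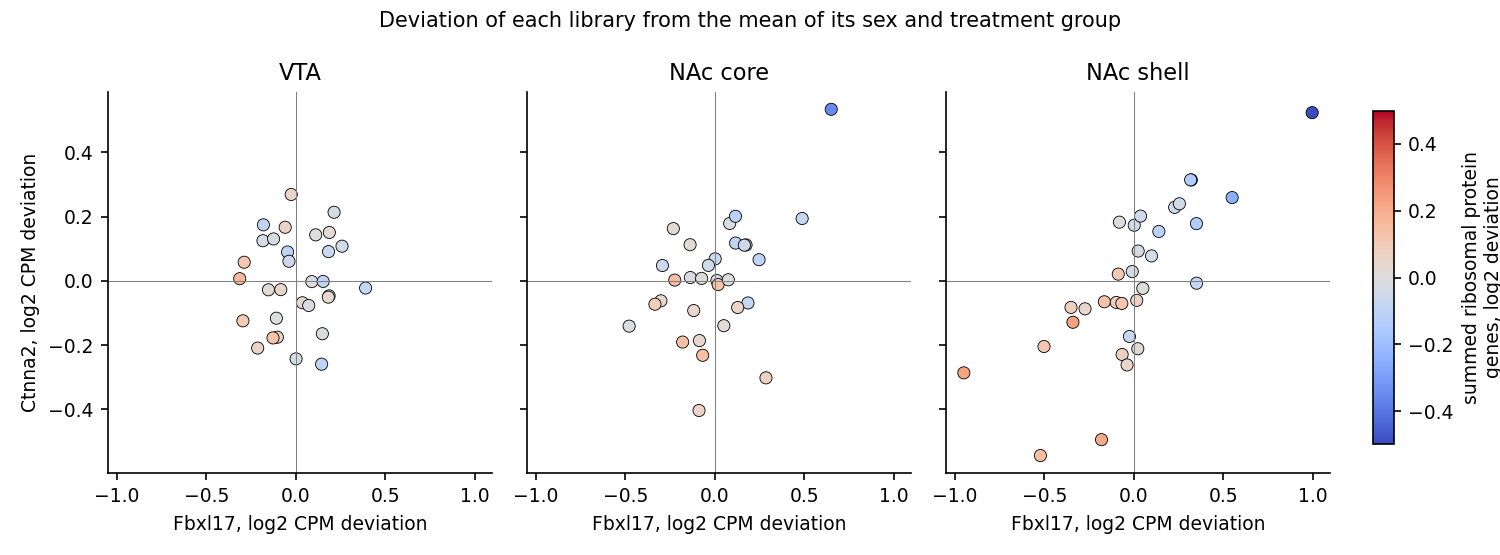
Deviation of Ctnna2 against that of Fbxl17 (both log2 CPM, from the mean of the sex and treatment group), with a panel for each region and 1 point per library, coloured by the deviation of the summed ribosomal protein genes. In NAc shell the points rise together (r = 0.767) and pass from red, a high ribosomal sum, to blue, a low one.

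Genes of similar pattern were ranked by Pearson r of log2 CPM over the 94 libraries, the 12 group means subtracted, among 14452 genes with a mean of at least 1 CPM. For Klhdc8b the highest were Itm2c (r = 0.604), an integral membrane protein, then 3 genes with no symbol in the tables (0.571, 0.567 and 0.560) and Sulf1, a heparan sulfatase (0.558). The lowest were Zfp91 (-0.608), the AMPA receptor subunit Gria4 (-0.597) and Cab39 (-0.579). Its r with Itm2c was 0.805 in VTA and 0.364 in core. Fbxl17 had closer neighbours: Ids, a lysosomal sulfatase (0.873), Fam168b (0.850), the dynein light chain Dnal1 (0.847), Zfp106 (0.845) and the ubiquitin ligase Rnf4 (0.843). At the other end were a gene with no symbol (-0.786) and the ribosomal protein genes Rpl37a (-0.775) and Rps7 (-0.770). The neighbours of Ctnna2 were Bzw1 (0.746), Vps41 of the endolysosomal tethering complexes (0.720), the G protein subunit Gnao1 (0.718), the SNARE cofactor Napb (0.718) and the kinase anchor Akap6 (0.716), and its lowest values were again ribosomal, with Rps12 (-0.719), Rplp1 (-0.700) and Rpl27a (-0.669). For Ctnna2 the r with Bzw1 was 0.895 in shell and 0.792 in core but 0.264 in VTA. Among the members, Fbxl17 and Ctnna2 had r = 0.570 over the 94 libraries, Klhdc8b and Ctnna2 -0.291, and Klhdc8b and Fbxl17 -0.0311.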

How the data were processed

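RNA-seq libraries of VTA, NAc core and NAc shell from 32 F1 rats were analysed. The authors trimmed reads with fastp 0.20.0, quantified them with Salmon 0.12.0 on Rnor version 6 and summed transcripts to genes with tximport, versions being those of the submitters' processing notes. The deposited table holds whole-number estimated counts, which the authors had not normalized, for 96 libraries (0 columns without a sample). Of these, 94 were used: a second library of male VTA SAL rat 5 and female NAc core NIC rat 1 were left out, since their names are not among those drawn in the study's sample clustering, and entered only where all mapped libraries are named.

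The 16879 genes that exceeded a normalized count of 10 in 3 or more libraries were tested (758 were not) by edgeR's quasi-likelihood test (R 4.3.3, edgeR 4.0.16, TMM), with Benjamini-Hochberg adjustment over all tested genes at 0.05. NIC and SAL were compared within sex and region without a covariate, and regions in 1 fit of 12 group means. Single values also had a two-sided exact permutation test of log2 CPM (prior count 2), and correlations had 100000 permutations of rats within groups (Python 3.11.15, scipy 1.17.1). Alternatives were DESeq2 1.42.0 size factors or test, other count filters, other libraries, prep batch or, added after the data were seen, the ribosomal sum as a covariate, and each library left out. The fits were tested on simulated data. Promoter sequences are from RefSeq, found for 3 of 3 genes.

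The 3 genes and the gene lists were chosen with earlier results of these data known. Genes named beside the 3 are the 2 with the smallest NIC p and the 2 with the largest region difference in each direction per list, the paralogs, the 5 most and 3 least similar genes, and markers that moved with a result. A result that falls under this rule is not reported here. Symbols came from the study's tables and matched 7926 genes, so Ctnna3 and others could not be counted.

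Libraries of 1 rat carry the same number in the labels, which pairs them. Over all tested genes, with group means removed, libraries of the same rat had a median correlation of 0.087 between core and shell, 0.034 between VTA and core and 0.033 between VTA and shell, and those of different rats -0.012, -0.0086 and -0.0041. Within 1 region each library is a separate rat, so p-values there measure the spread between rats. Tests between regions treat libraries of 1 rat as separate in the main fit, and the rat entered as a block only in an alternative. qPCR values and the other experiment of the study were not analysed here.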

Additional observations from a re-analysis of the deposited data

Results flagged for a closer look

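Of 36 groups of 7 or 8 libraries (3 genes, 12 groups), 5 held a highest library that stood apart from the rest of its group by Dixon's test at the 95% level. Chance alone marks about 1 group in 20.

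In male NAc core NIC, Klhdc8b was 65.5 CPM in rat 9, where the other rats lay between 51.97 and 58.22 CPM. Fbxl17 in female NAc core NIC was 23.32 CPM in rat 5, with the others between 13.46 and 17.6 CPM. Male NAc core SAL rat 4 stood apart for Fbxl17 at 27.56 CPM (others 12.55 to 19.16) and for Ctnna2 at 49.74 CPM (others 29.22 to 34.4), and its ribosomal sum of 8837 CPM was the lowest of NAc core. Male NAc shell SAL rat 6 had 37.9 CPM of Fbxl17 (others 13.17 to 24.18) and a ribosomal sum of 7945 CPM, the lowest of NAc shell.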

How the results depend on the processing

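Leaving aside single libraries, 581 of the recomputed values kept direction and side of the threshold, 41 turned sign, 5 lost and 3 gained a call. The NIC changes in male VTA have no test here. They were counted as kept where the direction held and the shift was smaller than the SD within a treatment group. No NIC change of the 3 genes outside male VTA reached an adjusted p under 0.05 under any alternative run. Fit with the rat as a replicate block, region differences and differences of the NIC change kept their calls, and 1 small value turned sign, Fbxl17 in shell minus core (-0.0091). With prep batch as a covariate a NIC change rests only on batches that hold both treatments. These are C in males and J in females, with L as well in female VTA. That left 3 NIC and 2 SAL rats in male shell, and 2 of each in female shell. Beyond that, the cause of these shifts was not tested.

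With prep batch as a covariate the NIC changes that turned were those of Ctnna2 in male core (0.050), male shell (0.37), female core (-0.011) and female shell (-0.050), and of Fbxl17 in male shell (0.44) and female core (-0.29). It also turned the sex difference of the NIC change for Ctnna2 in core (0.070) and shell (0.42) and Fbxl17 in shell (0.14), the female VTA minus core difference of the NIC change of Klhdc8b (-0.0087), and the male minus female level of Klhdc8b in VTA (-0.14) and Fbxl17 in shell (-0.013). With the ribosomal sum as a covariate Fbxl17 in female core became -0.048. Region differences lost a call for Klhdc8b (-0.12) and Fbxl17 (0.14) in VTA minus core, gained one for Ctnna2 in VTA minus shell (-0.45) and shell minus core (-0.12), and turned for Fbxl17 in shell minus core (-0.059). In SAL libraries only, Ctnna2 in VTA minus core lost its call (-0.13), and the male minus female level turned for Klhdc8b in VTA (-0.23) and shell (-0.020) and for Ctnna2 in VTA (0.14). In females only, Ctnna2 lost VTA minus core (-0.013) and turned in VTA minus shell (0.049), and in males only the latter gained a call (-0.21). With all mapped libraries Fbxl17 in shell minus core was -0.019, its sex difference of the NIC change in core -0.061, and male minus female Klhdc8b in core 0.022 (0.023 without the 3 libraries that stood apart).

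Of the correlations between regions, the male ones that turned were Klhdc8b in VTA and core with prep batch (0.263) or ribosomal sum removed (0.117), Klhdc8b in core and shell with batch (-0.0408), and with the ribosomal sum Ctnna2 in VTA and shell (-0.209) and in core and shell (-0.315). In females they were, with batch, Fbxl17 in VTA and core (-0.285), Klhdc8b in VTA and shell (-0.0807) and Ctnna2 in core and shell (0.0297). Still in female core and shell, Klhdc8b turned with DESeq2 size factors (-0.0341), ribosomal sum (-0.0962) and without the 2 rats farthest out (-0.414), Fbxl17 with all mapped libraries (0.0319) and ribosomal sum (0.060), and Ctnna2 with ribosomal sum (0.172). Among relations between genes, Klhdc8b with Fbxl17 turned in VTA with the ribosomal sum (0.0345) and without 2 rats (0.0771), in core with all mapped libraries (-0.153) and in shell with the ribosomal sum (0.141), where Fbxl17 with Ctnna2 lost its call (0.214).

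Leaving out 1 library at a time kept the NIC change of Klhdc8b between 0.12 and 0.19 in male core and between -0.21 and -0.14 in female core. It turned the sign of Ctnna2 in male core (-0.092 to 0.032, without SAL rat 4), Klhdc8b in male shell (-0.020 to 0.028), Fbxl17 in male shell (-0.28 to 0.0059, without SAL rat 6), Fbxl17 in female VTA (-0.052 to 0.051) and Fbxl17 in female core (-0.050 to 0.089, without NIC rat 5). Precision is limited by counts of 166 to 1622 per library and 7 or 8 rats per group.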

Other observations

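The libraries left out of the comparisons had these levels. Female NAc core NIC rat 1 had 36.57 CPM of Klhdc8b, 30.58 CPM of Fbxl17 and 33.58 CPM of Ctnna2, so that its Klhdc8b was below and its Fbxl17 above every NAc core library used. The second library of male VTA SAL rat 5 (R1) had 47.73, 32.63 and 30.39 CPM of the 3 genes in the same order, without a TMM factor. The library used (R2) had 44.03, 32.9 and 28.3 CPM with one, so the values of R1 and R2 are not on the same scale.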
